A study of Mus musculus with 12 samples.

Results

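The forkhead genes Foxc1, Foxc2, Foxd1, Foxd2, Foxf1, Foxf2 and Foxl1 were followed in embryoids and in controls. They are 7 of the 24946 genes of the expression table and were taken by symbol, as forkhead genes of paraxial and lateral plate mesoderm. All of them but Foxl1 were expressed at low levels in embryoids, with Foxf1 the highest by mean, whereas the controls had values of 0 or 1. Each of the 4 groups, Control D7, Control D8, Embryoid D7 and Embryoid D8, had 3 libraries. An embryoid was made on day 3 by merging an untreated aggregate started from 100 mouse embryonic stem cells (ESCs) with one started from 50 cells that had spent 8 h in BMP4, a morphogen of the TGF-beta family, at 10 ng/ml by the labels and 10 µg/ml by the study's methods. Controls were made by merging 2 untreated aggregates of these sizes. Both were collected at day 7 (D7) or day 8 (D8), and the RNA of whole structures was pooled for each library, 12 structures by the labels and 10 by the study's methods. All groups carry the cell line label E14TG2a and the strain label 129/ola. In the library names, however, the 6 controls begin with WT and the 6 embryoids with E14, and Hprt, an X-linked gene that E14TG2a is generally described as lacking, stood at 32 to 36 in controls and at 0 or 1 in embryoids. A difference of line or clone and the difference of treatment cannot be told apart in any comparison of embryoids with controls.

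Forkhead proteins are transcription factors that bind DNA through a winged-helix domain. In the mouse embryo, Foxc1 and Foxc2 are active in presomitic mesoderm, somites, head mesenchyme and vessels, and are jointly required for somites to form. Foxf1 and Foxf2 are active in splanchnic lateral plate mesoderm and in the mesenchyme that surrounds the gut and lung, where they respond to hedgehog ligands secreted by the endoderm, and Foxl1 is active in gut mesenchyme. Foxd1 marks the stroma of the developing kidney and parts of the retina and diencephalon, and Foxd2 is active in paraxial mesoderm and its derivatives.

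Values are taken as TPM, the unit named in the study's methods, rounded by the authors to whole numbers. TPM is a measure of transcript abundance scaled for gene length and library total that can be compared between genes. The sum of all values was between 997897 and 998433 in the 12 libraries. Since TPM does not carry the number of reads, depth is unknown and no counting error can be given. Rounding alone moves a value by up to 0.5. In whole structures, fewer cells of a type and less RNA per cell cannot be told apart. Genes of cytosolic ribosomal proteins took 10.7 to 13.4% of the total in controls and 15.6 to 18.7% in embryoids.

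Of the 7 genes, 5 lie in 2 short clusters of the genome. In the GENCODE M21 annotation (mouse assembly GRCm38, also called mm10), Foxf1 (ENSMUSG00000042812, 2 exons) lies at chr8:121084386-121088144, Foxc2 (ENSMUSG00000046714, 1 exon) at chr8:121116171-121118895 and Foxl1 (ENSMUSG00000097084, 1 exon) at chr8:121127940-121130644, all on the plus strand. Foxf2 (ENSMUSG00000038402, 2 exons) lies at chr13:31625816-31631403 and Foxc1 (ENSMUSG00000050295, 1 exon) at chr13:31806633-31812476, also on the plus strand. Foxd1 (ENSMUSG00000078302, 1 exon) lies alone at chr13:98354242-98359305 on the plus strand, and Foxd2 (ENSMUSG00000055210, 1 exon) at chr4:114906282-114908873 on the minus strand. Most of the 7 genes are thus a single exon, and no stretch of 75 bases, the read length, of the longest transcript of Foxc1, Foxc2, Foxd1, Foxd2 or Foxl1 is shared with a transcript of another gene. In Foxf1 and Foxf2, 1.03% and 1.05% of such stretches are shared, with Gm27530 and Gm27516 on the opposite strand. Whether reads were counted by strand is not stated by the labels or the methods.

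The promoters of the linked pair Foxc1 and Foxf2, of Foxd2 and of Fendrr, the noncoding RNA gene that starts 1276 bases from Foxf1 and is transcribed away from it, are printed because the levels of these genes are set side by side in what follows. The sequences are from RefSeq on GRCm38.p6, 250 bases before to 50 bases after the start, in the direction of transcription, and RefSeq promoters were matched for 4 of the 7 genes. The windows are chr13:31806396-31806695 on the plus strand for Foxc1, chr13:31625566-31625865 on the plus strand for Foxf2, chr4:114908849-114909148 on the minus strand for Foxd2 and chr8:121083061-121083360 on the minus strand for Fendrr. Capitals mark every match, on either strand, to one of 6 motifs that were chosen after the expression values were seen: the forkhead core TGTTTAC, the GLI core GGGTGGTC, the SMAD1/5 element GGCGCC, the ETS core CCGGAAGT, the SP element GGGCGG and the TATA element TATAAA.

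Foxc1: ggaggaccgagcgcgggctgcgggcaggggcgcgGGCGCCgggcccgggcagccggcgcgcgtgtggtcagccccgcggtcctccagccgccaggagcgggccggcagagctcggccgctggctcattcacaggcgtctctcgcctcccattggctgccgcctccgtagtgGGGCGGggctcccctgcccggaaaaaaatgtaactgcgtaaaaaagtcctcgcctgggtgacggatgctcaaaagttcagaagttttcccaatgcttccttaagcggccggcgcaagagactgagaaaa
Foxf2: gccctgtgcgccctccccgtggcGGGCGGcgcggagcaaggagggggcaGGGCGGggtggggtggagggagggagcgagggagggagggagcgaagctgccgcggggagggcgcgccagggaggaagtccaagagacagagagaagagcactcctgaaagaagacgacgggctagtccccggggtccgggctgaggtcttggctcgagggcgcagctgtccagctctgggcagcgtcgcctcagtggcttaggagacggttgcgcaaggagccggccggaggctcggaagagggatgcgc
Foxd2: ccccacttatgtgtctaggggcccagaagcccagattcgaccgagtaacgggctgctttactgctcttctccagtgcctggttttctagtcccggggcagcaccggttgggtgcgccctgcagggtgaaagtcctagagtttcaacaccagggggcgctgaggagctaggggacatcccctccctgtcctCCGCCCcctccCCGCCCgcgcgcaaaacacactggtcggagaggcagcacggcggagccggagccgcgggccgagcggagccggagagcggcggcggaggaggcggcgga
Fendrr: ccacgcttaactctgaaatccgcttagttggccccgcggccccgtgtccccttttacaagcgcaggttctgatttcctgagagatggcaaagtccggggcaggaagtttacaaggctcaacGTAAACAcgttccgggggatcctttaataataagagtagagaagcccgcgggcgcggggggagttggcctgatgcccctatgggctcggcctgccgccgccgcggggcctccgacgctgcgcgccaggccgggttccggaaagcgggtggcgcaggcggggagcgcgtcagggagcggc

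The SP element, present in 35.7% of 32851 promoters of the same length, was found once in the windows of Foxc1 and Foxd1 and at 2 places each in those of Foxd2 and Foxf2. The SMAD1/5 element, in 11.9% of promoters, was matched in the Foxc1 window among the 4 forkhead promoters. The forkhead core, in 3.65% of promoters, was matched in the Fendrr window, as GTAAACA on the strand shown, and in none of the 4 forkhead windows. The GLI core (0.807% of promoters), the ETS core (3.89%) and the TATA element (13.6%) were not among the letters of these 5 windows. The windows are rich in CG pairs, with 32 in Foxc1, 27 in Foxf2, 26 in Foxd2, 31 in Fendrr and 15 in Foxd1, against a median of 7 over all promoters. A match describes the letters of a window and not a site of binding.

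The gene of splanchnic mesoderm Foxf1 had the highest mean of the family members studied in embryoids of both days. In Embryoid D7 replicate 3, however, Foxc2 at 6 TPM and Foxc1 at 5 TPM were above Foxf1. Foxf1 was listed at 0 in all 6 controls. Embryoid replicates 1, 2 and 3 had 9, 16 and 3 TPM at D7 and 9, 16 and 22 TPM at D8. The embryoid libraries were therefore above every control on both days, and the D7 libraries were far apart, from 3 to 16 TPM. Values were compared as log2(TPM + 1) by limma, with all 12 libraries in a single model. A gene counts as called where its p, adjusted by Benjamini-Hochberg, is under 0.05 and its difference on this scale exceeds 1 in size. Where a group is listed at 0, that difference depends on the added 1 and is not a fold. Such a group also adds no spread to the model, so that standard errors can be too small. For Foxf1 the difference between embryoids and controls was 3.14 ± 0.44 (SE, n = 3 per group) at D7 (adjusted p = 7.71e-05) and 3.98 ± 0.44 at D8 (adjusted p = 9.95e-06).

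Foxf2, which acts beside Foxf1 in gut and palate mesenchyme, was near the limit of the table. It was listed at 0 in every control, at 1, 1 and 0 TPM in the embryoid libraries at D7 and at 1, 1 and 2 TPM at D8. The groups overlapped at D7, where the difference of 0.67 ± 0.27 on the log2(TPM + 1) scale did not reach the fold threshold (adjusted p = 0.0458). At D8 the groups did not overlap, and Foxf2 was called higher in embryoids (difference 1.19 ± 0.27, adjusted p = 0.00193). Without Embryoid D8 replicate 3 its mean was 1 TPM, which is not above the filter, and it was not tested. The call was also lost with quantile normalization (adjusted p = 0.145), with 5 in place of 1 added before the log (difference 0.34), and with embryoid values lowered and control values raised by the rounding error (adjusted p = 0.356). Foxl1 was listed at 0 in all 12 libraries and was not tested. With no depth given, no upper limit can be set on its level beyond the rounding of 0.5 TPM.

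Foxc1 and Foxc2, the forkhead genes of presomitic mesoderm and somites, were both higher in embryoids on both days. Foxc1 had 1, 0 and 1 TPM in the D7 controls, 0 in the 3 D8 controls, 4, 3 and 5 TPM in the D7 embryoids and 3, 4 and 3 TPM in the D8 embryoids. Each embryoid library was above each control. The difference on the log2(TPM + 1) scale was 1.64 ± 0.25 at D7 (adjusted p = 0.000154) and 2.11 ± 0.25 at D8 (adjusted p = 1.80e-05). Foxc2, which is also known for its part in lymphatic vessels and valves, was listed at 0 in all 6 controls. Its embryoid replicates had 5, 4 and 6 TPM at D7 and 2, 4 and 2 TPM at D8. Here too no embryoid library reached down to the controls, with a difference of 2.57 ± 0.20 at D7 (adjusted p = 6.38e-07) and 1.83 ± 0.20 at D8 (adjusted p = 8.17e-06). With 5 in place of 1 added before the log, neither Foxc1 nor Foxc2 was called on either day.

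Foxd1 and Foxd2 had the smallest differences among the genes called on both days. Foxd1, known from kidney stroma and used by the study as a somite marker, had 0, 0 and 1 TPM in the D7 controls and 1, 0 and 0 TPM in the D8 controls. In embryoids it had 2, 1 and 3 TPM at D7 and 2, 2 and 1 TPM at D8. A value of 1 occurred in both conditions on each day, so the groups met without separating. It passed both thresholds at D7 (difference 1.19 ± 0.37, adjusted p = 0.0139) and at D8 (1.06 ± 0.37, adjusted p = 0.0242). These calls were lost when only the 6 libraries of a day were fitted (adjusted p = 0.0702 at D7 and 0.0548 at D8). They were also lost without any of several single libraries: Control D7 replicates 1 or 2 and Embryoid D7 replicate 3 at D7, and Control D8 replicates 2 or 3 and Embryoid D8 replicates 1 or 2 at D8 (adjusted p 0.0527 to 0.0868). Foxd2 was listed at 0 in every control, at 1, 1 and 2 TPM in the D7 embryoids and at 1, 2 and 1 TPM in the D8 embryoids. Its groups did not overlap on either day, and the difference was 1.19 ± 0.21 on both (adjusted p = 0.000375 at D7 and 0.000341 at D8). Without Embryoid D7 replicate 3 at D7, or without Embryoid D8 replicate 2 at D8, the difference was exactly 1 and no longer above the fold threshold.

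**Figure D1:**
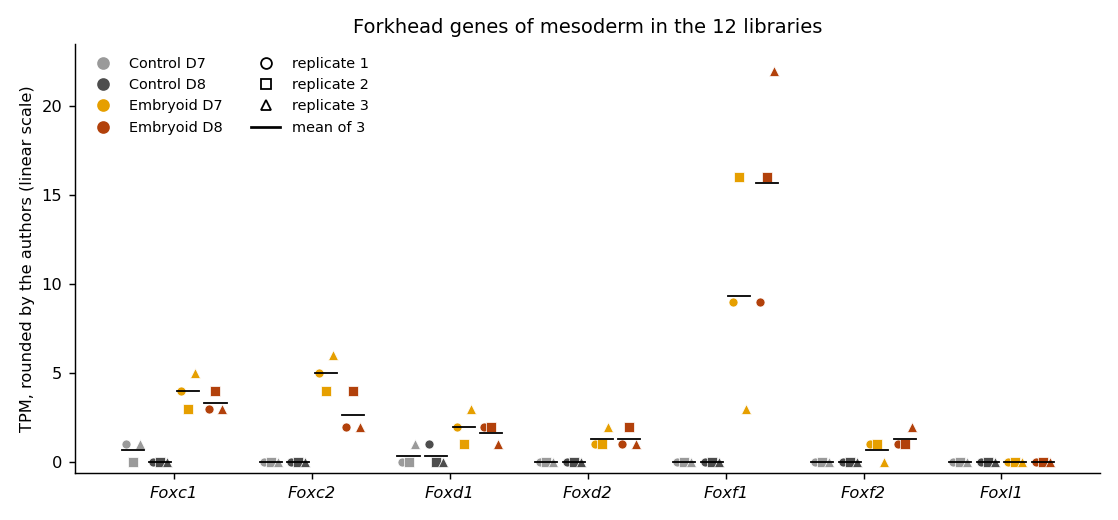
Values of the 7 genes in each library, in TPM rounded by the authors on a linear scale; colours mark the 4 groups, symbols the replicates and black bars the mean of 3 libraries. Foxf1 spans 3 to 22 TPM over the 6 embryoid libraries, the other members reach at most 6 TPM, Foxl1 is at 0 throughout, and controls are at 0 or 1.

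Of the 6 members with a group mean above 1, embryoids had higher calls for 5 at D7 and for 6 at D8. Over all 13751 genes tested, 7.56% were higher by these thresholds at D7 and 10.2% at D8. The members passed the filter on low values through their embryoid levels alone, and the genes were proposed with these differences in view, so the counts describe them and are no independent evidence. The median difference over all genes tested was -0.19 at D7 and -0.18 at D8, and it moved to 0.02 on both days with median-of-ratios scaling. Rounding bounds what the low values can show. In an alternative chosen after the data were seen, embryoid values of the members were lowered and their control values raised by 0.5 TPM. On each day 3 members were then called, namely Foxc1, Foxc2 and Foxf1. Other genes kept their values and control groups at 0 still had no spread, so this is not a worst case for the adjusted p. With the shift, the mean of Foxf1 in embryoids was still 8.33 TPM above that in controls at D7 and 14.7 TPM at D8. For Foxc2 this least difference was 4.0 and 1.67 TPM, and for Foxc1 2.33 TPM on both days. For Foxd1 it was 0.667 and 0.333 TPM, for Foxd2 0.333 TPM on both days, and for Foxf2 0.333 TPM at D8. At D7, Foxf2 in Embryoid D7 replicate 3 was at 0 and could not be lowered. With the shift its embryoid mean at D7 fell below that of controls.

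**Figure D2:**
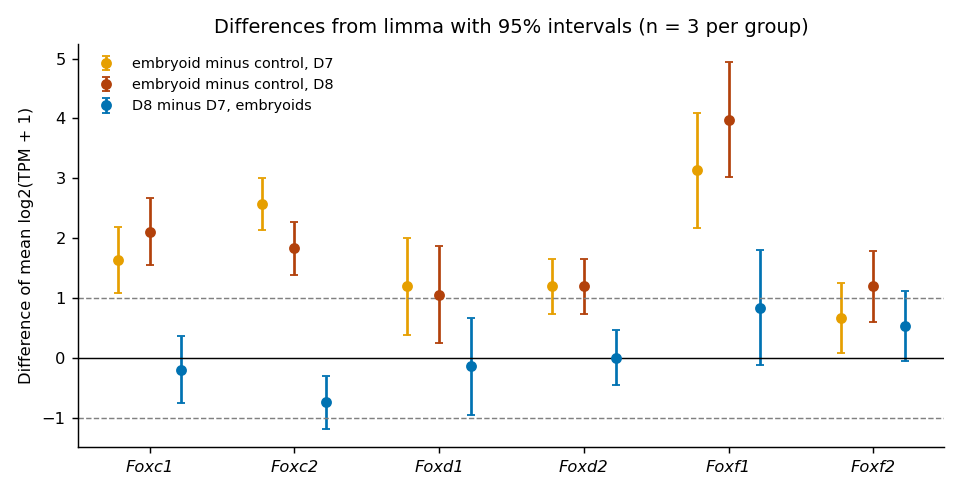
Differences of mean log2(TPM + 1) for the 6 tested genes with 95% intervals from limma (3 libraries per group): embryoid minus control at D7 and at D8, and D8 minus D7 in embryoids. Dashed lines mark a difference of 1 in either direction; Foxf1 stands at 3.14 and 3.98 above the controls, and the D8 minus D7 interval lies below 0 for Foxc2 only among the 6 genes.

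None of the 6 members passed both thresholds between D7 and D8. In embryoids, 0 were called by limma (1 at an unadjusted p under 0.05, Foxc2), where 2.66% of all genes tested were called. In controls, 0 were called (1 at an unadjusted p under 0.05, Foxc1), against 2.73% of all genes. Foxc2, Foxd2, Foxf1 and Foxf2 were at 0 in every control and could not be called there, so this count was largely fixed in advance. For Foxc1 the p rests on values of 0 or 1 TPM. For the change of the difference between embryoids and controls from D7 to D8, 0 were called (1 at an unadjusted p under 0.05, Foxc2), against 2.51% of all genes. Foxc2 came closest, with a mean of 5.0 ± 1.0 TPM (SD, n = 3) in D7 embryoids and 2.67 ± 1.15 TPM in D8 embryoids. Its difference between the days was -0.74 ± 0.20 (adjusted p = 0.0226), under the fold threshold, and both days held a library at 4 TPM. With quantile normalization it became -1.14 and was called for the days (adjusted p = 0.00312) and for the change of the difference (adjusted p = 0.0266). Foxf1 had 9.33 ± 6.51 TPM at D7 and 15.7 ± 6.51 TPM at D8, a difference of 0.84 ± 0.44 (adjusted p = 0.202). Without Embryoid D7 replicate 2 this difference was 1.32 and was called (adjusted p = 0.0285). The intervals of the D8 minus D7 difference in embryoids ran from -0.75 to 0.36 for Foxc1, from -0.95 to 0.67 for Foxd1, from -0.46 to 0.46 for Foxd2 and from -0.06 to 1.12 for Foxf2, so changes of these sizes could not be told from none.

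The members ranked alike on both days in part. At D7 the order of the embryoid means was Foxf1, Foxc2 at 5.0 TPM, Foxc1 at 4.0 ± 1.0, Foxd1 at 2.0 ± 1.0, Foxd2 at 1.33 ± 0.58 and Foxf2 at 0.667 ± 0.577. The ranges of the libraries of every pair of neighbours in this order met or overlapped, and within each D7 library Foxc2 was 1 TPM above Foxc1. At D8 the order was Foxf1, Foxc1 at 3.33 ± 0.58, Foxc2, Foxd1 at 1.67 ± 0.58, and Foxd2 and Foxf2 both at 1.33 ± 0.58. Here Foxf1, at 9 TPM or above, stood clear of Foxc1, at 4 TPM or below, and the libraries of the other neighbours met or overlapped. Among all genes tested, the level of Foxf1 was above that of 39.9% in D7 embryoids and of 48.4% in D8 embryoids. Foxc2 was above 28.6% and 15.1% of them, and Foxc1 above 24.9% and 18.7%. The sum of the 7 genes was 22, 26 and 19 TPM in the D7 embryoids and 18, 29 and 31 TPM in the D8 embryoids, against 0 to 2 TPM in controls. Foxf1 made up between 15.8% of this sum, in Embryoid D7 replicate 3, and 71.0%, in Embryoid D8 replicate 3. Without Foxf1 the sum ran from 9 to 16 TPM.

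Genes next to each other in the 2 clusters differed in level. In the cluster of Foxf1, Foxc2 and Foxl1, the start of Foxc2 lies 31.8 kb and that of Foxl1 43.6 kb beyond that of Foxf1. Fendrr, known from lateral plate mesoderm of the mouse embryo, was listed at 0 in all controls, at 3, 3 and 0 TPM in the D7 embryoids and at 1, 3 and 3 TPM in the D8 embryoids. It was called higher in embryoids at D7 (difference 1.33, adjusted p = 0.0245) and at D8 (1.67, adjusted p = 0.00726), though Embryoid D7 replicate 3, where Foxf1 was also lowest, lay at the control value. Mthfsd, an enzyme-domain gene that lies between Foxf1 and Foxc2 on the other strand, stood at 37 to 45 TPM in all 12 libraries and was not called. Foxl1, 9.04 kb beyond the end of Foxc2, was at 0 as given above. In the other cluster, Foxq1, a forkhead gene 69.7 kb before the start of Foxf2, was listed at 0 in all controls and D7 embryoids and at 1, 1 and 1 TPM in the D8 embryoids, too low to be tested. Foxc1 starts 181 kb beyond Foxf2, and Gmds, an enzyme gene of GDP-fucose synthesis on the far side of Foxc1, had 16 to 21 TPM in controls and 25 to 30 TPM in embryoids. Its differences of 0.54 at D7 (adjusted p = 5.35e-05) and 0.66 at D8 (adjusted p = 9.08e-06) were under the fold threshold. Exoc2, an exocyst gene of the same region, had 21 to 32 TPM in all libraries and was not called. Foxd2os, a noncoding RNA gene that starts 384 bases from Foxd2 in the opposite direction, had 1, 1 and 0 TPM in the D7 controls, 0, 1 and 0 TPM in the D8 controls, 4, 2 and 3 TPM in the D7 embryoids and 2, 3 and 2 TPM in the D8 embryoids. It was called higher in embryoids on both days, as was Foxd2 beside it (adjusted p = 0.00517 and 0.00324).

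**Figure D3:**
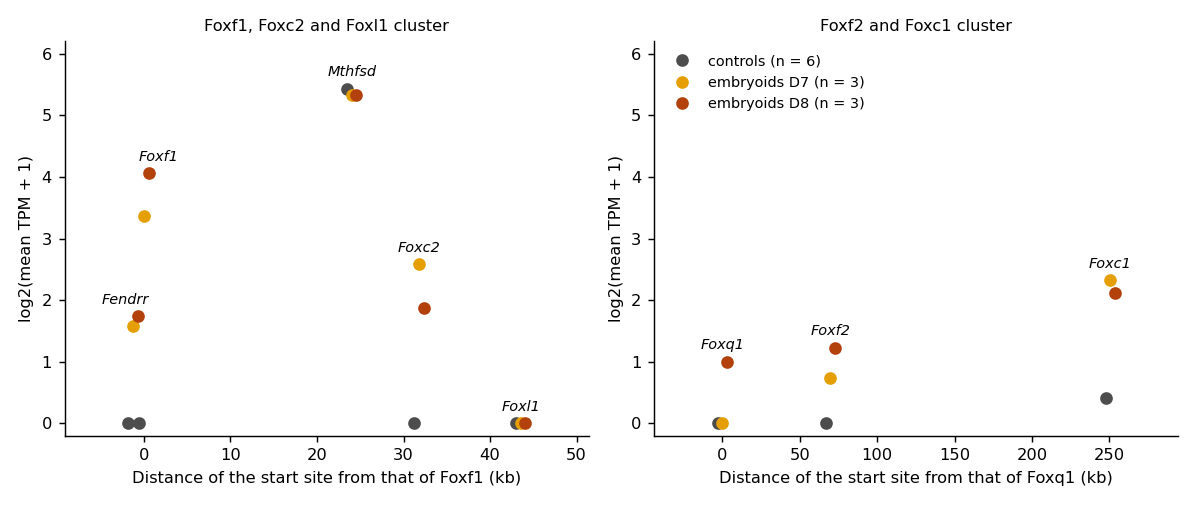
Mean levels of the genes of both forkhead clusters, as log2(mean TPM + 1), against the distance of their start site from that of Foxf1 (left) or Foxq1 (right), in kb, with controls, D7 embryoids and D8 embryoids offset sideways for visibility. Mthfsd, at 37 to 45 TPM, lies level in all groups between Foxf1 and Foxc2, and Foxl1 lies at 0 TPM in every group.

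Other forkhead genes were called in both directions. The table holds 44 forkhead genes, of which 13 were listed at 0 in every library. Of the 37 others, 19 could be tested, and 3 were called higher and 1 lower in embryoids at D7, and 5 higher and 2 lower at D8. Over all genes tested, the share called lower was 8.33% at D7 and 9.61% at D8, beside the 7.56% and 10.2% called higher. Those called higher on both days were Foxa2, Foxb1 and Foxh1. Foxb1, a gene of the caudal diencephalon, hindbrain and spinal cord, had 2, 2 and 2 TPM and 1, 2 and 2 TPM in D7 and D8 controls, and 10, 8 and 11 TPM and 9, 10 and 8 TPM in D7 and D8 embryoids (difference of log2(TPM + 1) 1.82 ± 0.16, adjusted p = 1.97e-06, and 1.93 ± 0.16, adjusted p = 9.99e-07). Foxh1, a partner of SMAD2 downstream of Nodal, had 1 or 2 TPM in D7 controls and 8, 10 and 8 TPM in D7 embryoids (difference of log2(TPM + 1) 1.88 ± 0.32, adjusted p = 0.000332), and it was also called at D8 (1.92 ± 0.32, adjusted p = 0.000253). Foxa2, of endoderm and floor plate, had 2 to 6 TPM in embryoids and 0 or 1 TPM in controls. Foxj1, which drives the motile cilium programme, was the gene called lower on both days. It had 10, 11 and 10 TPM in D7 controls and 38, 37 and 38 TPM in D8 controls, but 1, 1 and 1 TPM and 3, 2 and 1 TPM in embryoids (difference of log2(TPM + 1) -2.50 ± 0.19, adjusted p = 4.64e-07, and -3.74 ± 0.19, adjusted p = 1.43e-08). The highest forkhead levels belonged to genes that many cells use. Foxm1, of the cell cycle, had 84 to 121 TPM over the 12 libraries and was not called, and Foxo4 had a mean of 130 TPM in D8 embryoids against 62.0 TPM in D8 controls. Of the forkhead genes, 4 were at 0 in every control and above 0 in every embryoid library, namely the members Foxc2, Foxd2 and Foxf1, and Foxa1, an endoderm gene with 1 or 2 TPM in embryoids that was called at D8 only. The same held for 462 of the 13751 genes tested.

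**Figure D4:**
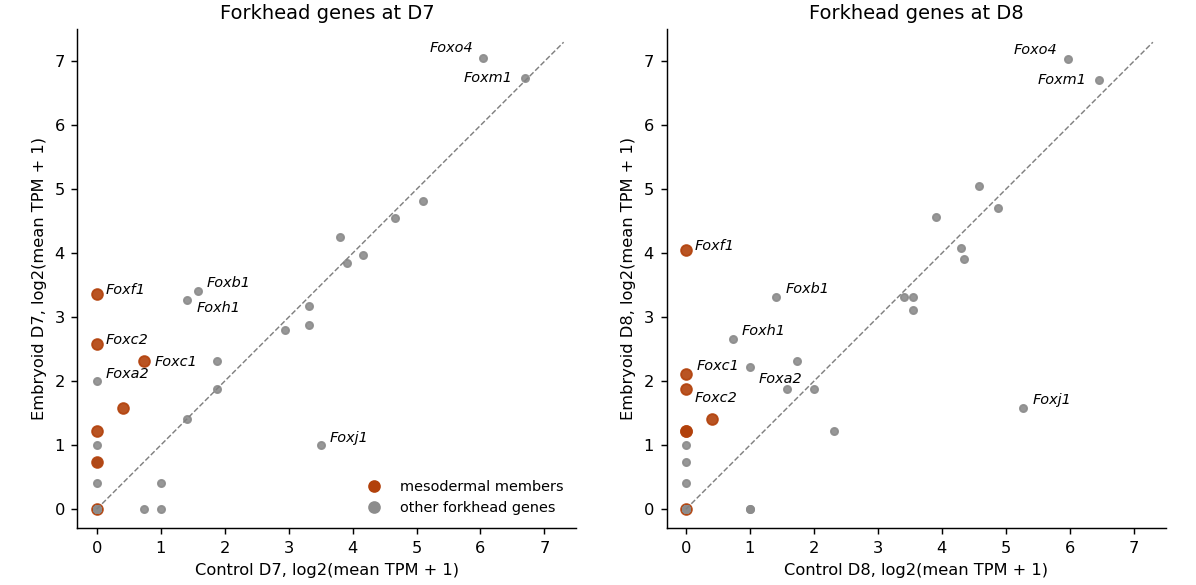
All 44 forkhead genes in embryoids (vertical) against controls (horizontal) at D7 (left) and D8 (right), as log2(mean TPM + 1) with 3 libraries per mean; the dashed line marks equal levels. The tested mesodermal members lie at or near the left edge above the line, Foxb1 and Foxh1 above it, Foxj1 far below it, and Foxm1 and Foxo4 at the top.

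Genes of the tissues in which these forkhead genes are known to act were read from lists chosen with earlier results in view. Among all genes tested, 7.56% were called higher and 8.33% lower at D7, and 10.2% and 9.61% at D8. Listed genes at 0 in all controls passed the filter through embryoids alone and could not be called lower. They were 8 of 13 tested lateral plate genes, 6 of 12 somitic, 5 of 10 of intermediate mesoderm and kidney stroma, 10 of 18 of endothelium and 7 of 14 of mesenchyme. Of 13 tested lateral plate genes, 9 were called higher at D7 and 11 at D8, and none lower, with a median difference of 2.11 and 2.66 against -0.19 and -0.18 over all genes tested. Hand1, a basic helix-loop-helix factor of lateral and extraembryonic mesoderm, was at 0 in controls, at 78, 105 and 37 TPM in D7 embryoids and at 72, 119 and 126 TPM in D8 embryoids. Wnt2, a ligand of the lung field mesoderm, and Tbx20, of the heart field, were also at 0 in controls and had means of 33.7 and 12.0 TPM in D8 embryoids. Bmp4 and Prrx1 were not called, and Bmp4 had 14 to 34 TPM in controls. Of 21 listed genes of presomitic and somitic mesoderm, 12 could be tested. The others had no group mean above 1, and among them Mesp1, Mesp2 and Myf5 were at 0 in all libraries. Of the 12 tested, 7 were called higher and 2 lower at D7, and 4 higher and 3 lower at D8. Meox1, a homeobox gene of somites, was at 0 in controls, at 100, 52 and 93 TPM in D7 embryoids and at 20, 52 and 21 TPM in D8 embryoids. Tcf15, of somite epithelium, and Meox2 were at 0 in controls, with 7, 5 and 8 TPM and 7, 3 and 4 TPM in D7 embryoids. Lfng and Dll1, of the Notch pathway, were called lower on both days, and Uncx, of the posterior part of each somite, was called lower at D8. Between the days in embryoids, Meox1 (difference -1.45, adjusted p = 0.0092) and Tcf15 (-1.06, adjusted p = 0.00154) were called lower at D8, and the lateral plate genes called higher included Gata6, Tbx20 and Wnt2.

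The study uses Foxd1 as a marker of its somite cluster, and the somitic genes are given above. Genes of intermediate mesoderm and kidney stroma, from which Foxd1 is also known, were read as a further list. Of its 10 tested genes, 7 were called higher and 1 lower at D7, and 7 higher and 1 lower at D8. The shares over all genes tested were 7.56% higher and 8.33% lower at D7, and 10.2% and 9.61% at D8. Osr1, of early intermediate mesoderm, had 6, 8 and 5 TPM in D7 embryoids and 5, 6 and 8 TPM in D8 embryoids and was at 0 in controls. Sall1, a zinc finger gene of the nephrogenic mesenchyme that is also active in neural tissue, had 11 to 17 TPM in controls and 63 to 126 TPM in embryoids. Tcf21, of kidney stroma and visceral mesenchyme, was at 0 in controls and had 6, 8 and 3 TPM and 8, 12 and 12 TPM in embryoids. Lhx1 was the gene called lower.

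Hedgehog ligands act upstream of Foxf1 in the mouse gut and lung, and 11 of 14 listed genes of this pathway could be tested. Ihh, Dhh and Hhip were listed at 0 in all libraries. Of the 11 tested genes, 4 were called higher and 2 lower at D7, and 4 higher and 1 lower at D8. Of all genes tested, 7.56% were called higher and 8.33% lower at D7, and 10.2% and 9.61% at D8. The ligand Shh was at 0 in controls, with 4, 7 and 2 TPM in D7 embryoids and 6, 10 and 10 TPM in D8 embryoids. The receptor and target Ptch1 had 5 to 9 TPM in controls and 32 to 60 TPM in embryoids (difference of log2(TPM + 1) 2.43 at D7, adjusted p = 1.37e-07, and 2.54 at D8, adjusted p = 7.98e-08). Gli1, a transcription factor and target of the pathway, had 0 to 2 TPM in controls and 17 to 34 TPM in embryoids (difference of log2(TPM + 1) 3.70 at D7, adjusted p = 4.03e-07, and 3.69 at D8, adjusted p = 3.26e-07). Gli3, which acts largely as a repressor, was called lower on both days, with 46 to 65 TPM in controls and 13 to 26 TPM in embryoids. Cdon was the other gene called lower at D7 (difference of log2(TPM + 1) -1.04, adjusted p = 0.000247). The signal transducer Smo was not called, at 56 to 77 TPM in all libraries. The pathway is also active in the notochord and floor plate, so these values do not place the signal next to the forkhead genes.

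Several cell types that can hold these forkhead genes moved with them, and their part in the result was not tested. The counts below stand beside 7.56% of all genes tested called higher and 8.33% lower at D7, and 10.2% and 9.61% at D8. Of 18 tested genes of endothelium, 15 were called higher on each day and 1, Pdpn, was called lower at D7 (difference -1.27, adjusted p = 6.94e-07). The list summed to 131 to 175 TPM in controls, where 11 of the 18 were at 0 on each day, and to 258 to 395 TPM in embryoids. Pdpn, a membrane glycoprotein of lymphatic endothelium and several epithelia, made up most of the sum in controls, with 120 to 151 TPM there and 45 to 105 TPM in embryoids. Cdh5, the cadherin of endothelium, was among those at 0 in controls and had 36 to 55 TPM in embryoids. Of 14 genes of cranial and visceral mesenchyme, 12 were called higher and 1 lower, Vim, at D7, and 13 higher at D8, with Col3a1 and Postn at 0 in controls and at means of 294 and 236 TPM in D8 embryoids. The sum of this list, 1677 to 1932 TPM in controls and 905 to 2426 TPM in embryoids, is carried largely by Vim, an intermediate filament gene of many cell types, with 1667 to 1918 TPM in controls and 633 to 1248 TPM in embryoids. All 8 tested cardiac genes were called higher on both days, and the list summed to 1 to 5 TPM in controls and to 530 to 3079 TPM in embryoids. Of 7 tested neural crest genes, 4 were called higher on each day and 1, Sox9, was called lower at D7 (difference -1.51, adjusted p = 7.85e-07). The list summed to 19 to 25 TPM in controls and 38 to 70 TPM in embryoids. Genes of forebrain and eye moved the other way. Of 15 listed, 8 could be tested. Of these, 7 were called lower at D7 and 8 at D8, and the list summed to 501 to 598 TPM in controls and to 13 to 40 TPM in embryoids. The pluripotency list was low throughout, with sums of 5 to 15 TPM.

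Among the embryoid libraries, the members did not vary together. At D7, Foxc1, Foxc2 and Foxd1 were highest in replicate 3 and lowest in replicate 2, whereas Foxf1 was highest in replicate 2 and lowest in replicate 3. At D8, Foxc1, Foxc2 and Foxd2 were highest in replicate 2, and Foxf1 and Foxf2 in replicate 3. Except for Foxf1 these contrasts are steps of 1 or 2 TPM, close to the rounding. This reading of the libraries was chosen after the values were seen and has 3 libraries a day. The order of Foxf1, replicate 2 above 1 above 3 at D7 and 3 above 2 above 1 at D8, was followed strictly on both days by 199 of 12871 tested genes with an embryoid mean above 1 (1.55%). It was followed by 3 of the 13 lateral plate genes, by 5 of the 14 mesenchyme genes, among them Col3a1 and Postn, by 0 of the 11 somitic genes and by 0 or 1 gene of each other list. Low whole numbers tie easily, so the strict count can leave out genes of low level. With ties allowed, 553 genes (4.3%) followed the order. The counts were then 3 of 13 lateral plate, 5 of 14 mesenchyme, 3 of 11 hedgehog and 3 of 18 endothelium genes. For intermediate mesoderm and kidney stroma it was 2 of 9, for linked neighbours 1 of 5 and for somitic genes 0 of 11. Shh and Tcf21 followed with a tie at D8. Nkx2-3, a homeobox gene of gut mesenchyme that followed the order strictly, had 4, 8 and 2 TPM at D7 and 5, 11 and 12 TPM at D8. Meox1 and Meox2, like Foxc2, were lowest in replicate 2 at D7 and highest in replicate 2 at D8. At D7 both were highest in replicate 1 and Foxc2 in replicate 3.

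**Figure D5:**
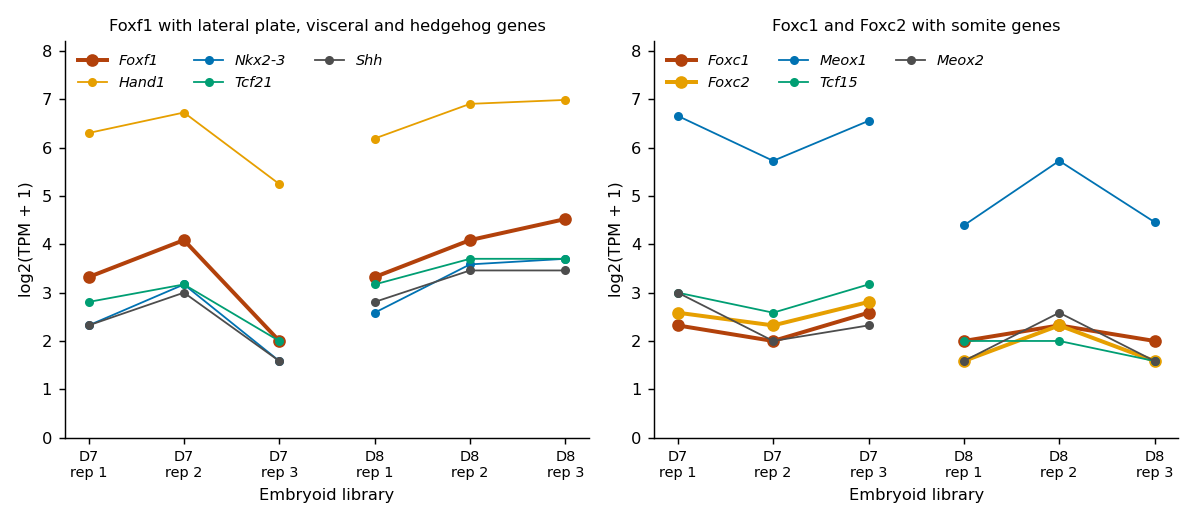
Levels as log2(TPM + 1) in the 6 embryoid libraries, D7 and D8 replicates 1 to 3, for Foxf1 with Hand1, Nkx2-3, Tcf21 and Shh (left) and for Foxc1 and Foxc2 with Meox1, Tcf15 and Meox2 (right); lines join libraries of one day as a guide and replicates have no order. Foxf1 (9, 16 and 3 TPM at D7) and Hand1 (78, 105 and 37 TPM) dip in D7 replicate 3, and Foxc2 and Meox1 peak in D8 replicate 2.

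The genes whose values over the 12 libraries were most like those of each member, by Pearson correlation of log2(TPM + 1), are given as a description. The libraries share their condition and day, so a correlation largely reads the difference between embryoids and controls: 477 genes reached 0.95 with Foxf1 and 258 with Foxc2. Tac2, a tachykinin precursor, came first for Foxf1 (r = 0.998), with 6, 10 and 3 TPM at D7 and 7, 12 and 14 TPM at D8, followed by the homeobox genes Dlx6 and Nkx2-3 (both r = 0.996). For Foxc2 the first 3 were Wnt8a, a ligand of the primitive streak and posterior embryo (4, 3 and 5 TPM, then 2, 3 and 2 TPM), Pde4c and Meox1 (all r = 0.997). For Foxc1 they were Miip, Riox2 and Rapgef3 (r = 0.969 to 0.975), for Foxd1 Dusp7, D17Wsu92e and Disp1 (0.910 to 0.920), for Foxd2 9030624G23Rik, Ppp2r5a and Gpr180 (0.980 to 0.999) and for Foxf2 Hemgn, Mamdc2 and Adamts18 (0.976 to 1). For Foxd2 and Foxf2, whose values are 0, 1 or 2, such correlations compare a few whole numbers. Of these 3 genes, 0 to 3 stayed among the first 3 by Spearman correlation and 0 or 1 over the 6 embryoid libraries alone. Hlx, a homeobox gene of gut mesenchyme, was also among the 3 genes most like Foxf1 both by Spearman correlation and over the embryoid libraries alone.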

How the data were processed

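Bulk RNA sequencing values of 12 libraries were used, 3 from each of the groups Control D7, Control D8, Embryoid D7 and Embryoid D8, as the sample labels give them. The authors mapped 75-bp single-end reads to mm10 with STAR 2.6.1a and tested genes with DESeq2. Their processing notes also name SAMtools 0.1.20 and featureCounts. They deposited one table of genes by library. Its values are treated as a score, since they are whole numbers whose sums show TPM rounded by the authors. DESeq2 and other count tests could not be used. The gene annotation and strand setting are not given in the sources used here, and depth is unknown.

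The 7 genes, the gene lists and the rule for named genes were chosen with earlier results of these data known. Named besides the 7 genes were their neighbours, forkhead genes called on both days or of highest level, up to 3 called and 2 uncalled genes of each list per direction, and the 3 genes most like each member. Foxa1, Hprt, Vim, Pdpn, Sox9, Cdon, Hlx and the untested genes named from a list were chosen after values were seen. So were the genes named for sharing the order of Foxf1, those named for a change between the days in embryoids, and the reading of library order.

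The 13751 genes whose mean exceeded 1 in any group were fitted on log2(value + 1) with limma 3.58.1 and statmod 1.5.0 in R 4.3.3, as 4 group means with trended robust variances. A gene was called where the adjusted p was under 0.05 and the absolute difference, taken to 9 decimals, exceeded 1. The p-values were adjusted by Benjamini-Hochberg over all genes tested in each of 5 contrasts. The fit was tested on simulated data. The p-values measure the spread between 3 pools per group, which the study describes as independent samples. The alternatives tried were pseudocounts of 0.5 and 5, a filter above 5 or none, median-of-ratios or quantile scaling, no trend or robust variances, the 6 libraries compared, a replicate block, each library left out and, chosen after the data were seen, worst-case rounding. Tables and plots used Python 3.11.15 with pandas 2.3.3, numpy 2.4.6 and matplotlib 3.10.9. The values of 1 lateral plate gene are not reported here.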

Additional observations from a re-analysis of the deposited data

How the results depend on the processing

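No call of a member reversed under any alternative run. The count of members called in embryoids against controls was 5 at D7 and 6 at D8 in the analysis as reported. It was 1 on each day with a pseudocount of 5 and 1 on each day with the filter above 5, under which Foxf1 alone was tested. Quantile normalization gave 3 at D8, 1 for the change of the difference and 1 for D8 against D7 in embryoids, both Foxc2. Worst-case rounding of the members' values, chosen after the data were seen, gave 3 on each day. Leaving out single libraries gave 3 to 5 at D7 (3 without Embryoid D7 replicate 3), 4 to 6 at D8 (4 without Embryoid D8 replicate 2) and 0 to 1 for D8 against D7 in embryoids (1 without Embryoid D7 replicate 2). Foxf2 at D7 was called with a pseudocount of 0.5 (difference 1.06, adjusted p = 0.0374). Of 606 values of single members under alternatives, 573 stayed on their side of the thresholds, 29 fell below and 4 rose above them. All 29 that fell were differences between embryoids and controls. The 606 also hold results never called in the main fit, among them D8 against D7 in controls for genes at 0 in every control. The share of 29 in 606 therefore understates how often a call was lost. The causes were not tested, except that a larger pseudocount shrinks differences of low values and a stricter filter tests fewer genes.

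Of all genes, 2185 at D7 and 2720 at D8 were called, but 1023 and 1331 with a pseudocount of 5. Median-of-ratios scaling moved the share called higher from 47.6 to 60.5% at D7 and from 51.4 to 61.9% at D8. For D8 against D7, the counts of 366 genes in embryoids and 376 in controls became 101 and 133 with a pseudocount of 5. In embryoids the count was 240 with quantile normalization and 105 with only the 6 libraries compared. For the change of the difference, 345 became 110 with a pseudocount of 5. Quantile normalization moved the share called higher from 64.3 to 41.9% for that change and from 95.1 to 79.6% for the days in embryoids. The replicate numbers showed no pairing of the samples: deviations of same-numbered libraries correlated at -0.19 to 0.08, and 0 of 18 pairs exceeded 0.1. Differently numbered libraries reached 0.232 (Embryoid D7 replicate 3 with Embryoid D8 replicate 1), and a batch shared under other numbers was not tested. With the replicate number as a block the members called stayed at 5 and 6, and the counts of all genes became 2183 at D7 and 2719 at D8. Values of 1 or 2 TPM limit Foxd1, Foxd2 and Foxf2, and Foxl1 could not be tested.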
